A study of Mus musculus with 20 samples.

Results

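The heart apex was searched for the transcripts of 9 genes that mark fat cells, as a sign of how much epicardial or brown fat each sample held. The members are Adipoq, Plin1, Cidec, Lep, Retn, Adrb3, Ucp1, Cidea and Scd1, chosen by name from the 25308 genes of the count table. RNA had been sequenced from the apical heart of 20 adult mice of either sex, with no age or sex given for single mice. All carried the DH background (DH-LMP2A), which makes no Ig heavy chains and has more plasma cells. The 9 AL mice were λS-DH animals, in which the cDNA of a human amyloid light chain (λS) replaces the Jκ segments of the Ig kappa locus, that had been induced with an intravenous injection of VL protein (fibril seeds or soluble) and carried amyloid in the heart. The 4 LS mice were λS-DH animals that had not been induced and had no amyloid, and the 7 Ctrl mice were DH animals without the human gene. The insertion lies in an Ig locus, which is active in B lineage cells, and the labels do not say which AL mouse received which form of the protein. The paper reports separate sequencing runs. Here 15 mice, with library names of the SCoeur series, form the first run. The other 5 (AL8, AL9, Ctrl5, Ctrl6 and Ctrl7), with other library names, form the second, and all LS mice were in the first.

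White adipocytes store triglyceride in a single large droplet coated by perilipin 1 and CIDEC, and secrete hormones such as adiponectin, leptin and resistin. Brown adipocytes hold many small droplets and burn fat through the uncoupling protein UCP1. In rodents the heart carries little epicardial fat, most of it in the groove between atria and ventricles, and fat also lies around the great vessels and in the pericardium. Cardiomyocytes themselves take up and store fatty acids, so that many genes of lipid metabolism are read in heart muscle without any adipocyte.

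Levels are given as CPM, that is counts scaled by library size and TMM factor. Total counts were 43993277 to 62668146 in the first run and 7867642 to 11794615 in the second, so that a floor of 3 counts stood at 0.0474 to 0.0748 CPM in the first run and at 0.231 to 0.356 CPM in the second. A level under the floor was not detectable at that depth, and floors and intervals cover counting error only. The labelled tissue was checked against 8 cardiomyocyte markers, whose summed level was between 46900 CPM, in AL1, and 76600 CPM.

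Adipoq, Plin1, Cidec, Lep and Retn, the members that were high in the same mouse, are transcribed from the following stretches of GRCm38.p6, shown as the 250 bases before each RefSeq start, 5′ to 3′ on the strand of the gene. Capitals mark matches, on either strand, to a CCAAT box (CCAAT), a GC box (GGGCGG) or the core bound by C/EBP factors (TTNNGNAA), factors that act in fat cell differentiation. A TATA box (TATAAA) and a nuclear receptor half-site (AGGTCA) were also searched.
Adipoq, chr16:23146286-23146535, plus strand: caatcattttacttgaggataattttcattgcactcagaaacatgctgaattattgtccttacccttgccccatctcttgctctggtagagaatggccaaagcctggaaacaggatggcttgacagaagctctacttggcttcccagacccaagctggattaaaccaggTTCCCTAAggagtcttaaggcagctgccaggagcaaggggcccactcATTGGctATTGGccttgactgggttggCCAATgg
Plin1, chr7:79732777-79733026, minus strand: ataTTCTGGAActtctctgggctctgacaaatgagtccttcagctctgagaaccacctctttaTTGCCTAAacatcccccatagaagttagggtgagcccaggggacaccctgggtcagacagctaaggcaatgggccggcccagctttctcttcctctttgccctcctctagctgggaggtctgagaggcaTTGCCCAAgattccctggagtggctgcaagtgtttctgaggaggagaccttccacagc
Cidec, chr6:113435761-113436010, minus strand: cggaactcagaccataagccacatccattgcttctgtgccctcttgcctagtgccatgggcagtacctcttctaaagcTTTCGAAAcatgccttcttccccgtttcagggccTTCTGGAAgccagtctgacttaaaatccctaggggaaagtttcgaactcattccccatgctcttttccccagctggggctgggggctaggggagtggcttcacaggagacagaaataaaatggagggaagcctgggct
Lep, chr6:29059971-29060220, plus strand: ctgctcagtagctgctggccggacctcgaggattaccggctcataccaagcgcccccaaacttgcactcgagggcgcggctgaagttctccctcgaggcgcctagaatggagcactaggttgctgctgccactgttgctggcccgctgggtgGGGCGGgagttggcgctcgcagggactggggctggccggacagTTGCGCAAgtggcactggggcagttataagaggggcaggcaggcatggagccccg
Retn, chr8:3655520-3655769, plus strand: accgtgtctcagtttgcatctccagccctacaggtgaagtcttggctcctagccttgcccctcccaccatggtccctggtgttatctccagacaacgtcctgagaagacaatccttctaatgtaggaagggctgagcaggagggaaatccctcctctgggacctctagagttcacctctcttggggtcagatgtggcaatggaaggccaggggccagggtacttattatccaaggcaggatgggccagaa
The C/EBP core was found before Adipoq, Plin1, Cidec and Lep and not before Retn, and 36.8% of 32851 promoter windows of the same length hold it. In Lep the match began 55 bases before the start and read the same on both strands. The CCAAT box, held by 33.8% of windows, was found 3 times before Adipoq, and the GC box, held by 32.7%, was found before Lep. The TATA box (12.4% of windows) and the half-site (14%) were in none of these 5 windows, and the half-site was found 14 bases before the start of Ucp1. A match is a description of the letters, and binding was not measured. RefSeq windows matched 6 of the 9 members, and Adrb3, Scd1 and Cidea are named only.

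Adiponectin is the hormone most typical of fat cells, and its gene Adipoq (ENSMUSG00000022878) lies at chr16:23146536-23158028 on GRCm38. AL mice ranged from 0 to 10 CPM with a median of 0.293 CPM. The 4 LS mice were at 0.213, 0.189, 0.183 and 0.116 CPM. Ctrl mice ranged from 0.0407 to 0.799 CPM with a median of 0.224 CPM. The highest value was that of AL1, with 633 counts, and AL4 followed at 1.24 CPM with 66 counts, AL2 at 1.14 CPM and AL3 at 0.979 CPM. These 4 AL mice were above every LS and Ctrl mouse, and the other 5 lay among them or below.

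Plin1 (ENSMUSG00000030546, chr7:79720218-79732903) encodes the coat protein of the large fat droplet. Its level was 3.95 CPM in AL1 (250 counts) and at most 0.439 CPM in the other AL mice, whose median with AL1 included was 0.177 CPM. LS mice were at 0.0945, 0.105, 0.0611 and 0.077 CPM. Ctrl mice ranged from 0 to 0.519 CPM with a median of 0.0997 CPM. AL1 stood alone, and without it the AL mice lay within the range of the Ctrl mice.

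Retn (ENSMUSG00000012705, chr8:3655770-3660110) encodes resistin, which mouse white fat cells secrete. AL1 was at 2.18 CPM with 138 counts, AL3 at 0.507 CPM, AL4 at 0.356 CPM and AL2 at 0.284 CPM. The other 5 AL mice were at 0 to 0.0221 CPM, which gave a group median of 0.0221 CPM. LS mice were at 0.0709, 0.021, 0.163 and 0.0578 CPM, and Ctrl mice ranged from 0 to 0.145 CPM with a median of 0.038 CPM. The same 4 AL mice as for Adipoq were above every LS and Ctrl mouse, while most values elsewhere rested on a few counts.

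Lep (ENSMUSG00000059201, chr6:29060220-29073877), the gene of leptin, was at 15.2 CPM in AL1 with 960 counts and at 1.51 CPM in AL2 with 69 counts. The other 7 AL mice were at 0 to 0.101 CPM. LS mice were at 0, 0.0421, 0.0611 and 0.0578 CPM, and Ctrl mice ranged from 0 to 0.373 CPM with a median of 0.0984 CPM. Of all Lep counts in the 20 mice, 88.4% came from AL1. AL1 and AL2 alone were above the highest Ctrl mouse, and 14 mice had at most 3 counts.

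Cidec (ENSMUSG00000030278, chr6:113424634-113435760) encodes a protein that fuses fat droplets in white fat cells and is also made in fatty liver. AL1 was at 16.7 CPM with 1054 counts, and the other AL mice were at 0 to 1.33 CPM. LS mice were at 2.48, 0.0631, 0.163 and 1.12 CPM. Ctrl mice ranged from 0 to 3.63 CPM with a median of 0.249 CPM, and Ctrl2, Ctrl4 and Ctrl1 held the highest levels at 3.63, 3.38 and 1.64 CPM. After AL1 the highest Cidec levels were thus in Ctrl and LS mice and not in AL mice.

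Adrb3 (ENSMUSG00000031489, chr8:27225776-27250616) encodes the adrenergic receptor through which catecholamines release fat. AL1 had 43 counts or 0.68 CPM, AL3 had 5 counts, and no other mouse had more than 2. The gene was at 0 in 3 of 4 LS and 5 of 7 Ctrl mice.

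**Figure D1:**
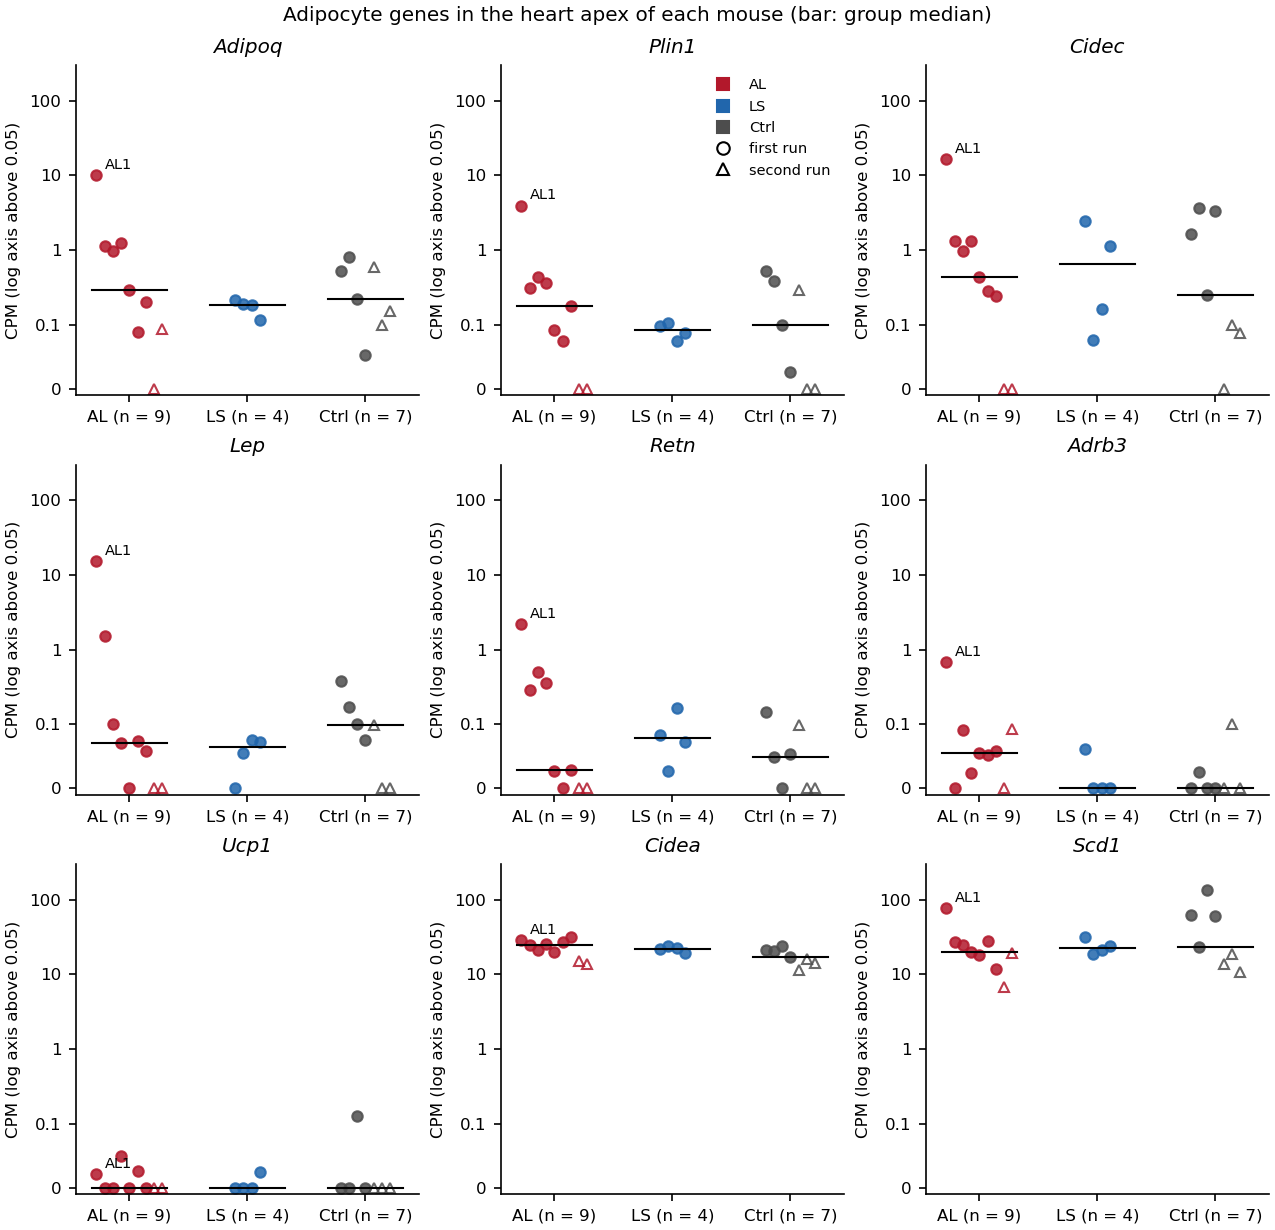
CPM of each of the 9 genes in each mouse, by group, on an axis that is logarithmic above 0.05 CPM, with filled circles for the first run, open triangles for the second and a bar at the group median. AL1 lies apart from all other mice for Adipoq, Plin1, Cidec, Lep, Retn and Adrb3, Ucp1 is near 0 throughout, and Cidea lies in a narrow band of 11.4 to 31.6 CPM.

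Summed, the 6 adipocyte markers (Adipoq, Plin1, Cidec, Lep, Retn and Adrb3) reached 48.7 CPM in AL1, from 3078 counts or 0.00491% of its reads. The next mouse was Ctrl2 at 5.04 CPM, followed by AL2 at 4.57 CPM. Without AL1 the AL mice ranged from 0 to 4.57 CPM with a median of 0.804 CPM, the LS mice from 0.42 to 2.91 CPM with a median of 1.03 CPM, and the Ctrl mice from 0.231 to 5.04 CPM with a median of 1.08 CPM. Once AL1 was set aside, the LS range lay within both the AL and the Ctrl range of the 2 runs together. All LS mice were in the first run, while the 5 second-run mice lay at 0 to 1.08 CPM. In the first run alone, the 6 AL mice without AL1 ranged from 0.522 to 4.57 CPM with a median of 1.97 CPM. The 4 first-run Ctrl mice ranged from 0.672 to 5.04 CPM with a median of 3.37 CPM, beside the LS median of 1.03 CPM. In bulk tissue a larger number of fat cells and more RNA per fat cell cannot be told apart.

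**Figure D2:**
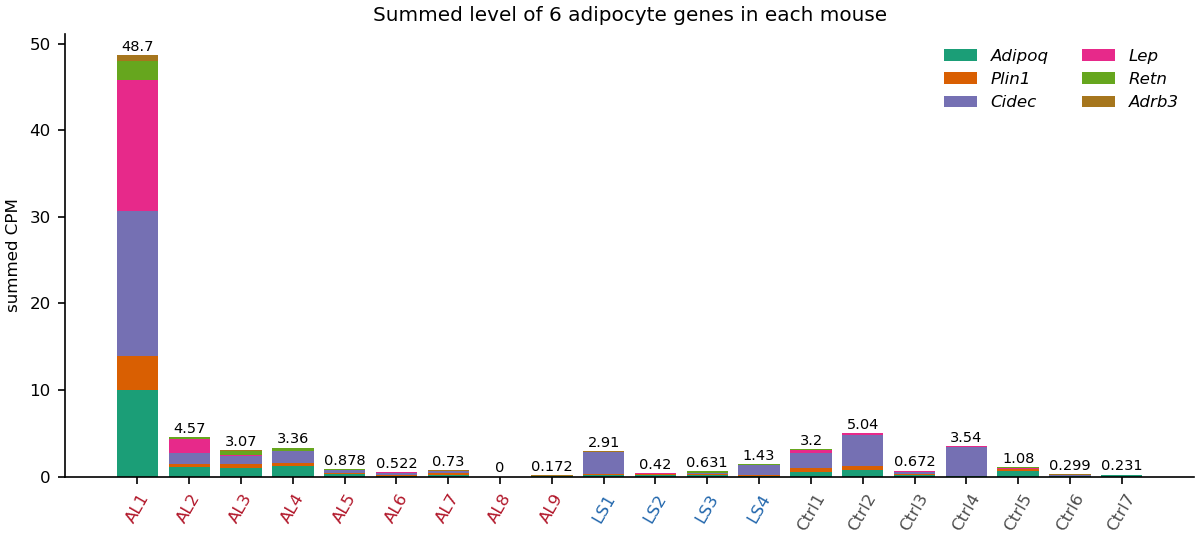
Summed CPM of Adipoq, Plin1, Cidec, Lep, Retn and Adrb3 in each mouse, with the part of each gene in colour and the sum above the bar. AL1 reaches 48.7 CPM and no other mouse exceeds 5.04 CPM, and Cidec makes up most of the bars of Ctrl4, Ctrl2 and LS1.

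Compared per kilobase of exon, the 6 markers were unequal in AL1, with Cidec at 9.0, Adipoq at 7.24, Lep at 4.53, Retn at 1.38, Plin1 at 0.85 and Adrb3 at 0.201 CPM per kb. The medians of the other 19 mice were 0.151 CPM per kb for Cidec, 0.144 for Adipoq, 0.0241 for Retn, 0.0203 for Plin1 and 0.0172 for Lep. Cidea and Scd1, by contrast, had medians of 18.8 and 4.39 CPM per kb in those mice. The level of AL1 was 10.1 times that of the next mouse for Lep, 8.06 times for Adipoq, 7.61 times for Plin1, 4.6 times for Cidec and 4.3 times for Retn. AL1 was below the highest mouse for Ucp1, Cidea and Scd1.

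Other mice also had genes far above all the rest. Among 14342 genes with at least 20 counts in some mouse, 15 were at least 4 times as high in AL1 as in the next mouse, 6 of them members, while AL4 led in this way for 40 genes, AL9 for 73 and the other 17 mice for 0 to 9. Of the rest of the 15 genes, picked out after their values were seen, Lgals12 (0.458 against at most 0.112 CPM) encodes a galectin of fat droplets, Tshr (0.395 against 0.038 CPM) the thyrotropin receptor, Nnat (2.20 against 0.436 CPM) neuronatin, which fat tissue also makes, and Bmp3 (0.506 against 0.083 CPM) a bone morphogenetic protein. Tmem45b, with 1.5 CPM in AL1 and at most 0.112 CPM elsewhere, had the largest ratio of the genes that were not at 0 in the other mice. H3c14 was at 2.67 CPM in AL1 and at 0 in all others. Ankef1 (0.869 against at most 0.131 CPM), Hoxc8 (0.348 against 0.0578 CPM) and Lctl (1.03 against 0.197 CPM) complete the 15. AL1 was the highest mouse for 9.01% of all 14477 tested genes.

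A list of 16 further genes of white adipocytes was read beside the members. In 8 of the 16, named here after their values were seen (Acvr1c, Car3, Cfd, Fabp4, Pparg, Slc7a10, Sncg and Trarg1) AL1 was the highest of the 20 mice. Car3, a carbonic anhydrase abundant in fat, was at 36.9 CPM in AL1 and at most 14.3 CPM elsewhere, and Cfd, the gene of adipsin, at 3.70 against at most 2.04 CPM. Trarg1, which takes part in glucose transporter traffic in fat cells, was at 7.59 against at most 4.16 CPM, and Pparg, the master regulator of fat cell formation, at 15.9 against at most 12.6 CPM. Fabp4, a fatty acid carrier of fat cells and of heart capillaries, was at 958 against at most 808 CPM. Other genes of the list with high levels in every mouse were not highest in AL1. Lpl was at 5730 CPM (rank 15 of 20), Cd36 at 1940 CPM (rank 11), Plin4 at 217 CPM (rank 17) and the glucose transporter gene Slc2a4 at 277 CPM (rank 18). Genes of the list with lower levels were not all highest in AL1 either. Adig was at 0.601 against 0.689 CPM in Ctrl5 (rank 3) and Pck1 at 7.81 against 14.2 CPM in Ctrl3 (rank 3). Cebpa was at 6.18 against 7.06 CPM in AL9 (rank 2) and Aqp7 at 18.2 against 21.2 CPM in AL8 (rank 2).

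**Figure D3:**
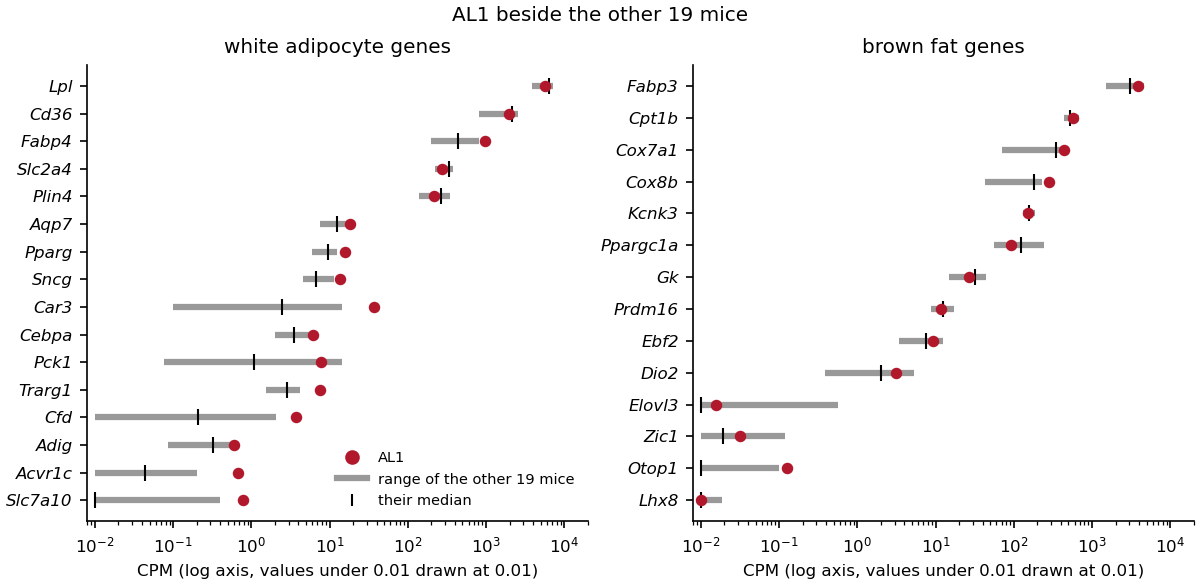
CPM on a log axis for 16 white adipocyte genes (left) and 14 brown fat genes (right), with AL1 as a red point, the range of the other 19 mice as a grey line and their median as a tick. AL1 is beyond the range of the others for 8 of the 16 white adipocyte genes and for 2 of the 14 brown fat genes.

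Ucp1 (ENSMUSG00000031710, chr8:83290352-83298452), the defining gene of active brown fat, was near 0 in all groups. AL mice had 0 to 2 counts, LS mice 0, 0, 0 and 1 count, and Ctrl mice 0 to 5 counts. The 20 mice had 10 counts in all, of which 5 were from Ctrl3 (0.125 CPM), and 15 mice had none. AL1, with the highest white fat markers, had 1 Ucp1 count. No group level could be told from the floor.

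Cidea (ENSMUSG00000024526, chromosome 18), whose protein takes part in brown fat droplets, was read in every mouse. AL mice ranged from 13.6 to 31.6 CPM with a median of 24.6 CPM, LS mice were at 21.7, 24.3, 22.6 and 19.2 CPM, and Ctrl mice ranged from 11.4 to 23.8 CPM with a median of 17.2 CPM. The lowest 5 values were those of the 5 mice of the second run, at 11.4 to 16.1 CPM. Cidea thus had the narrowest spread of the members, with coefficients of variation of 26.3% in AL, 9.59% in LS and 24.1% in Ctrl mice.

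Of the 14 further brown fat genes, Fabp3, Cpt1b, Cox7a1, Cox8b, Kcnk3 and Ppargc1a, read in the heart as well as in brown fat, were at 43.3 CPM or more in every mouse, and Prdm16 at 8.77 to 17.2 CPM. Lhx8, Otop1, Elovl3 and Zic1, used as markers of brown fat, were at or near 0. Lhx8 was at 0 in 19 mice, Otop1 in 16, Elovl3 in 12 and Zic1 in 8, and the highest value of the 4 was 0.56 CPM (Elovl3 in Ctrl1). Ebf2 and Dio2, which also mark brown fat, were read in every mouse, at 3.44 to 12.3 CPM and 0.384 to 5.34 CPM. AL1 was the highest mouse for Cox8b (285 against at most 233 CPM) and Otop1 (8 counts).

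Scd1 (ENSMUSG00000037071, chr19:44394455-44407879) encodes the desaturase that makes oleate and is abundant in both fat and liver. AL mice ranged from 6.76 to 76.6 CPM with a median of 19.9 CPM. LS mice were at 31.5, 18.7, 21.5 and 24.4 CPM. Ctrl mice ranged from 10.8 to 135.0 CPM with a median of 23.6 CPM. The highest mouse was Ctrl3, followed by AL1 at 76.6 CPM, Ctrl1 at 62.0 CPM and Ctrl4 at 61.6 CPM, and all other mice were at 31.5 CPM or less. Scd1 therefore had more high Ctrl mice than high AL mice.

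Ctrl3, Ctrl1 and Ctrl4 were also among the mice with the most RNA of 10 liver markers, genes of an organ that the heart apex faces across the diaphragm. The summed liver level was 301 CPM in Ctrl3, 245 in Ctrl1, 183 in LS1, 161 in LS3 and 156 in Ctrl4, and Alb alone reached 215 CPM. It was 1.32 to 36.1 CPM in AL mice, 7.63 CPM in AL1, and 1.57 to 5.58 CPM in the second run. Pearson's r of Scd1 with the liver sum on the log2 scale was 0.67 over 20 mice and 0.698 over the 14 first-run mice without AL1. LS1 and LS3, with as much liver RNA as Ctrl4, were at 31.5 and 21.5 CPM of Scd1. The part of liver RNA in the Scd1 level was not tested beyond the covariate given with the group comparisons.

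**Figure D4:**
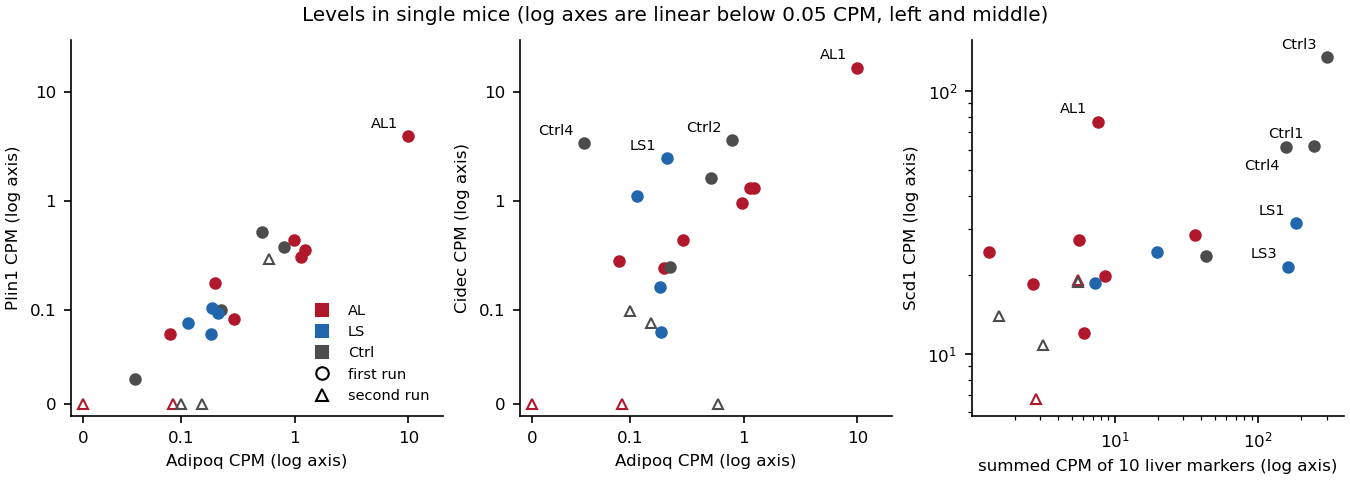
Levels in single mice on log axes, linear below 0.05 CPM at left and middle: Plin1 against Adipoq (left), Cidec against Adipoq (middle) and Scd1 against the summed level of 10 liver markers (right), coloured by group with open triangles for the second run. Plin1 follows Adipoq, Ctrl4, LS1 and Ctrl2 have more Cidec than their Adipoq level goes with in other mice, and AL1 has high Scd1 at 7.63 CPM of liver markers.

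For AL against Ctrl mice, edgeR's quasi-likelihood test was run with a term for the sequencing run. A gene counted as called if its FDR (Benjamini-Hochberg) was below 0.05 and its log2FC was 0.58 or more in size. Filtering on low counts left 6 of the 9 members to be tested, and Lep, Adrb3 and Ucp1 did not pass. Retn passed through 4 AL mice alone (AL1 to AL4, at 13 to 138 counts), since no LS or Ctrl mouse had more than 8 counts. Its fitted values are thus a description and support no difference. Adipoq and Plin1 passed through AL mice together with Ctrl1, Ctrl2 and Ctrl5. The LS and Ctrl mice alone would not have let either pass, so their fitted values are a description as well. Of those 6, 0 were called, beside 7.81% of all 14477 tested genes, although 3 had an unadjusted p under 0.05, and DESeq2 also called 0. The log2FC was 1.75 ± 1.03 (SE, FDR = 0.22) for Adipoq, 1.30 ± 0.977 (FDR = 0.345) for Plin1, 0.37 ± 1.02 (FDR = 0.827) for Cidec, 2.79 ± 1.16 (FDR = 0.0818) for Retn, 0.24 ± 0.105 (FDR = 0.104) for Cidea and -0.95 ± 0.374 (FDR = 0.0675) for Scd1 (edgeR's quasi-likelihood test, 9 AL and 7 Ctrl mice). By this test the unadjusted p was 0.02 for Scd1, 0.0366 for Cidea and 0.0264 for Retn, and none of the 6 had an FDR below 0.05. Without AL1, Adipoq was at 0.31 ± 0.689, Plin1 at -0.29 ± 0.669 and Cidec at -1.58 ± 0.739, none of them called. With ComBat-seq adjusted counts in place of the run term, Adipoq was at 0.535 (FDR = 0.711).

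Scd1 was called lower in AL than in Ctrl mice when some of the mice were left out of the same test. Its log2FC was -1.25 (FDR = 0.013) without AL1, -1.22 (FDR = 0.0267) without AL9, -1.11 (FDR = 0.0351) without Ctrl2 and -1.25 (FDR = 0.0497) in the first run alone. It was -0.55 (FDR = 0.277) without Ctrl3, the mouse with the most Scd1 and the most liver RNA. With the liver markers as a covariate, an alternative chosen after seeing the data, it was -0.28 ± 0.525 (FDR = 0.748). All 10 liver markers were themselves called lower in AL than in Ctrl mice (median log2FC -4.625), beside 3.71% of all tested genes. Covariate and group overlap, and this fit cannot tell them apart. In the second run alone, where liver markers were at 1.57 to 5.58 CPM, Scd1 was at -0.10 ± 0.452 (FDR = 0.938, 2 AL and 3 Ctrl mice).

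Against LS mice, 1 of the 6 tested members was called, beside 8.9% of all tested genes. This was Adipoq, with a log2FC of 3.33 ± 1.16 (FDR = 0.0437, edgeR's quasi-likelihood test, 9 AL and 4 LS mice). The value is a description, since Adipoq passed the filter only with AL mice. The other log2FC values were 3.07 ± 1.14 (FDR = 0.0572) for Plin1, 2.54 ± 1.13 (FDR = 0.111) for Retn, 1.65 ± 1.11 (FDR = 0.291) for Cidec, 0.42 ± 0.457 (FDR = 0.533) for Scd1 and 0.20 ± 0.12 (FDR = 0.246) for Cidea. Without AL1 the log2FC of Adipoq was 1.75 ± 0.783 (FDR = 0.124), and the call was also lost without AL4 (3.37, FDR = 0.0529) or without LS1, LS2, LS3 or LS4 (3.16 to 3.41, FDR = 0.0885 to 0.11). Without AL5 or AL6, Plin1 was called as well (3.25 and 3.26, FDR = 0.0465 and 0.0435), and DESeq2 called Plin1 beside Adipoq in all mice. In the first run alone Adipoq was at 3.50 (FDR = 0.0377), and at 1.91 (FDR = 0.0849) without AL1. With ComBat-seq adjusted counts it was at 2.69 (FDR = 0.0921), and with no filter at 3.33 (FDR = 0.0506), neither of them called. Fitted with no filter, Lep was called at 5.73 (FDR = 0.0353) from the counts of AL1 and AL2, and was at 2.70 (FDR = 0.138) without AL1.

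AL mice were also compared with the 11 LS and Ctrl mice as 1 group, with a log2FC of 1 or more in size needed for a call. Of the 6 tested members 2 were called, beside 4.88% of all tested genes. Adipoq was called at 2.35 ± 0.823 (FDR = 0.0312, edgeR's quasi-likelihood test), a description, since it passed the filter only with AL mice. The other was Retn at 2.66 ± 0.853 (FDR = 0.0199), a description that supports no difference, since Retn had passed the filter through AL mice alone. Plin1 was at 1.93 ± 0.812 (FDR = 0.0694), Cidec at 0.87 ± 0.841 (FDR = 0.44), Cidea at 0.22 ± 0.0874 (FDR = 0.0555) and Scd1 at -0.56 ± 0.386 (FDR = 0.267). Without AL1 Adipoq was at 0.84 ± 0.6 (FDR = 0.301), and Retn no longer had the counts to be tested, as was also so without AL2, AL3 or AL4. The Adipoq call was lost without LS1, LS2, LS3, LS4, Ctrl3 or Ctrl4 too (2.17 to 2.27, FDR = 0.0526 to 0.0577). Within the first run Adipoq was at 2.78 (FDR = 0.0184) and Retn at 2.80 (FDR = 0.0253), and Adipoq was at 1.20 (FDR = 0.15) there without AL1. With the liver covariate neither was called (Adipoq 0.95, FDR = 0.702, and Retn 2.19, FDR = 0.409). All 10 liver markers were called lower in AL than in merged control mice, so that fit cannot tell covariate and group apart. With ComBat-seq adjusted counts Adipoq was at 1.12 (FDR = 0.281) and was not called. These comparisons share the AL mice, and thus AL1.

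**Figure D5:**
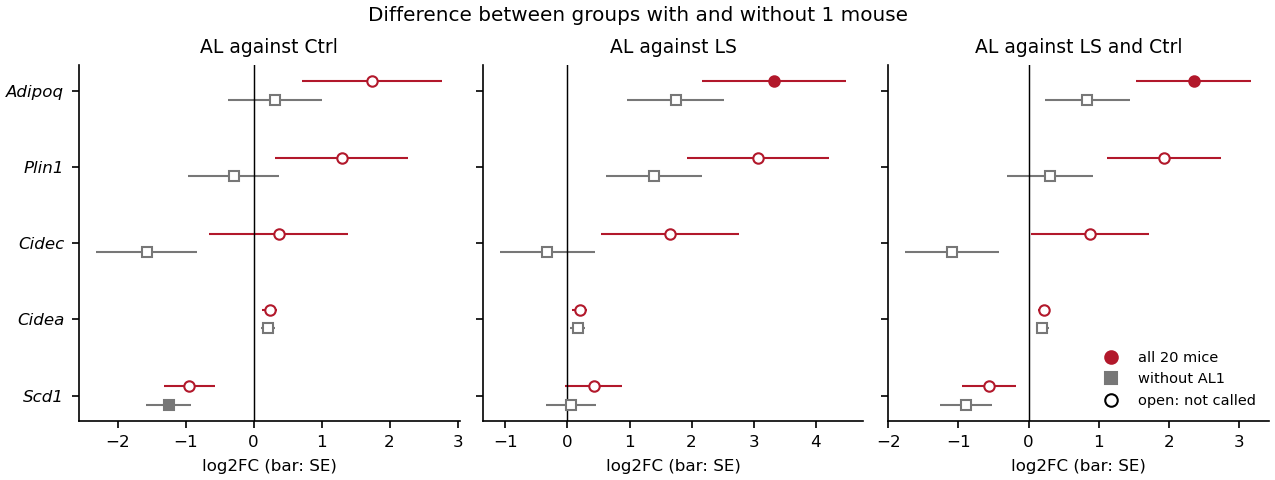
Log2FC with its SE for 5 members tested with and without AL1, from all 20 mice (red circles) and without AL1 (grey squares), filled where the gene was called. Adipoq is called against LS and against LS and Ctrl only with AL1, Plin1 and Cidec move toward or past 0 without it, and Scd1 is called lower than in Ctrl mice without it.

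LS mice, with the circulating light chain and no amyloid, were compared with Ctrl mice. Of the 6 tested members 0 were called by edgeR's quasi-likelihood test and by DESeq2, beside 0.0207% of all tested genes, and 1 had an unadjusted p under 0.05. That member was Scd1, at a log2FC of -1.37 ± 0.496 (FDR = 0.758). Adipoq was at -1.58 ± 1.24 (FDR = 0.905), Plin1 at -1.77 ± 1.24 (FDR = 0.891), Cidec at -1.28 ± 1.20 (FDR = 0.927), Retn at 0.25 ± 1.30 (FDR = 0.997) and Cidea at 0.04 ± 0.132 (FDR = 0.992). The 95% interval of the Cidea difference was -0.22 to 0.30, and that of Adipoq was -4.01 to 0.85, so that only for Cidea was a difference of more than 0.3 outside the interval.

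The second run differed from the first for 3 of the 6 tested members, all lower, beside 19.4% of all tested genes called in either direction and 10.3% called lower. Cidea was lower by a log2FC of -0.69 ± 0.118 (FDR = 0.000112), Scd1 by -1.75 ± 0.451 (FDR = 0.00392) and Cidec by -5.98 ± 1.82 (FDR = 0.0122, edgeR's quasi-likelihood test with group in the model). Cidec had 2 counts in the 5 mice of the second run together and a median of 58 counts (1.12 CPM) in the first. Without AL1 the log2FC of Cidec was -5.40 (FDR = 0.00254), and with the liver covariate Cidea alone stayed called. Of the 10 liver markers, 9 were themselves called lower in the second run, so that fit cannot tell covariate and run apart. Plin1 (-2.84, FDR = 0.13), Adipoq (-2.09, FDR = 0.207) and Retn (-3.22, FDR = 0.209) were not called, and most of their first-run levels were below the second run's floor. The run cannot be told apart from what else the mice of each run shared, such as the absence of any second-run mouse with the Xist level of a female.

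Over the 20 mice, 4 of the other 8 members were correlated with Adipoq at an FDR under 0.05 (log2 CPM with a prior count of 2, two-sided permutation test with 100000 resamples, adjusted over 14 relations). Plin1 had a Pearson r of 0.935 (p = 1e-05, the smallest the resamples can give, FDR = 0.00014) and a Spearman rho of 0.897 (permutation p = 1e-05, FDR = 0.00014), and r was 0.873 without AL1 and AL8, the mice farthest from the median of Adipoq. Retn had an r of 0.868 (permutation p = 3e-05, FDR = 0.00021), a rho of 0.725 (permutation p = 0.00037, FDR = 0.00259) and an r of 0.758 without these mice. Lep had an r of 0.813 (permutation p = 5e-05, FDR = 0.000233), a rho of 0.612 (permutation p = 0.00432, FDR = 0.0202) and an r of 0.6 without them. Within the 15 mice of the first run r was 0.954 for Plin1, 0.859 for Retn and 0.802 for Lep, and without AL1 it was 0.9, 0.714 and 0.523 there. The relation of Plin1 with Adipoq was thus nearly as close among the mice with low levels.

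Cidec had an r of 0.613 with Adipoq (permutation p = 0.00372, FDR = 0.013) and a rho of 0.485 (permutation p = 0.0321, FDR = 0.112), but r was 0.316 (permutation p = 0.201) without AL1 and AL8, so that the relation rested on those mice. The r was 0.538 for Adrb3 (FDR = 0.0727), 0.401 for Cidea (FDR = 0.138), 0.358 for Scd1 (FDR = 0.191) and 0.113 for Ucp1 (FDR = 0.718), by the same permutation test, and fell to 0.00352 for Adrb3 without AL1. Of the 6 marker lists of neighbouring tissues, r with Adipoq was 0.42 for atrial genes (FDR = 0.135), 0.414 for Schwann cell, 0.139 for lung, 0.0279 for skeletal muscle, -0.0672 for mesothelial and -0.151 for liver genes, none with an FDR under 0.05. In the first run alone the atrial list reached 0.643 (permutation p = 0.00696, FDR = 0.0244) and was at 0.645 without AL1.

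Marker lists moved with the groups as well. The summed level of the 10 mesothelial markers, genes of the cells that cover the heart, was 19.4 to 340.0 CPM in AL, 9.05 to 34.3 in LS and 21.1 to 50.4 in Ctrl mice. AL1 was at 41.9 CPM, and AL9, with 340.0 CPM, had 1 Adipoq count. The 5 atrial markers summed to 3.91 to 28.1 CPM in AL, 3.43 to 5.91 in LS and 2.99 to 6.93 in Ctrl mice, with AL1 at 12.9 CPM. Of the 10 liver markers, 10 were called lower in AL than in Ctrl mice, 8 lower than in LS mice and 10 lower than in both. The shares of all tested genes called lower were 3.71%, 3.03% and 2.15%. In AL1 no mesothelial, atrial, liver, lung or skeletal muscle marker was the highest of the 20 mice, and 1 of 6 Schwann cell markers was (Cdh19, 11.3 against at most 10.8 CPM). The part of these lists in the differences of the adipocyte genes was not tested.

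By Pearson's r on log2 CPM centred by run over 20 mice, the tested genes most like Adipoq were Plin1 (0.932), Retn (0.846), Cfd (0.804), Apol6 (0.78), Nnat (0.778), Sharpin (0.776), Fbxl20 (0.753), Plbd2 (0.73), Ripor1 (0.726) and Cdk9 (0.724). Plin1 and Cfd were also among the 3 most alike without AL1, with r of 0.872 and 0.778, and Tap2, a peptide transporter of antigen presentation, stood between them at 0.806. The genes most like Scd1 were Gja5 (0.816), Aldh1a7 (0.764), Ass1 (0.717), Mrap (0.705) and Mtarc1 (0.703). Ass1 is abundant in liver, and without AL1 the list also held the liver genes Hsd17b13 (0.809) and Ttr (0.767). For Ucp1, with 10 counts in all, the highest r was 0.596 (Apoc2), followed by 0.58 for Map2k3os, 0.565 for Trpc2, 0.564 for Ugt1a2 and 0.56 for Miox. Counts this low give no information on likeness.

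Within a mouse, the reads of Lep and Adipoq were not in 1 ratio. Lep made up 60.3% of the reads of both genes in AL1 (95% exact Clopper-Pearson interval 57.8% to 62.7%, 1593 counts) and 57.0% in AL2 (47.7% to 66%, 121 counts). It made up 9.38% in AL3 (3.52% to 19.3%, 64 counts), 4.35% in AL4 (0.906% to 12.2%, 69 counts) and 17.6% in Ctrl2 (8.4% to 30.9%, 51 counts). Ctrl1 lay between them at 41.9% (27.0% to 57.9%, 43 counts). AL2, AL3 and AL4 had like Adipoq levels of 0.979 to 1.24 CPM, and the intervals of AL3 and AL4 did not reach those of AL1 and AL2.

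Cidec and Adipoq parted in another way. Cidec made up 62.5% of the reads of both in AL1 (60.1% to 64.8%), 54.0% in AL2, 49.6% in AL3 and 51.8% in AL4. It made up 98.8% in Ctrl4 (95.8% to 99.9%, 168 counts), 92.1% in LS1 (85.5% to 96.3%), 90.6% in LS4 (80.7% to 96.5%), 82.0% in Ctrl2 (76.4% to 86.7%) and 76.0% in Ctrl1 (66.6% to 83.8%). Shares from fewer counts did not follow the groups, with 77.8% in AL6 (52.4% to 93.6%), 60% in AL5, 55% in AL7, 25% in LS2 (5.49% to 57.2%), 47.1% in LS3 and 52.6% in Ctrl3. Ctrl4 had 166 counts of Cidec beside 2 of Adipoq and 1 of Plin1. Liver markers were at 156 CPM in Ctrl4, 183 in LS1 and 245 in Ctrl1, but also at 19.6 in LS4 and 43.1 in Ctrl2, and Ctrl3 and LS3, at 301 and 161 CPM, had Cidec at 0.249 and 0.163 CPM. The r of Cidec with the liver sum was 0.381 over 20 mice, 0.494 over the 19 without AL1 and 0.193 over the 14 first-run mice without AL1.

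Genes around the members were followed in 5 lists. Of 14 tested white adipocyte genes, 0 were called by edgeR's quasi-likelihood test in AL against Ctrl, LS or both, with median log2FC of 0.08, 0.38 and 0.24 beside 0.01 over all tested genes, of which 7.81%, 8.9% and 4.88% were called. Without AL1 the medians were 0.05, 0.20 and 0.10, and Pck1 (-2.12, FDR = 0.0435) and Car3 (-1.57, FDR = 0.0292) were called lower than in Ctrl mice and Pck1 (-1.79, FDR = 0.0472) lower than in both, by the same test. Of 14 genes of lipid droplets and lipolysis, 0 were called in these comparisons, with medians of -0.024, -0.001 and -0.015. Between runs 3 of the 14 white adipocyte genes (Cd36, Pck1 and Car3, log2FC -0.77, -4.16 and -3.35) and 2 of the 14 droplet genes (Fitm1, -0.615, and Hilpda, -0.62) were called, all lower in the second run, beside 19.4% of all tested genes.

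Among 19 tested genes of fatty acid and triglyceride synthesis, 3 were called against Ctrl, 2 against LS and 1 against both, beside 7.81%, 8.9% and 4.88% of all tested genes. Mlxipl, which encodes the glucose-sensing factor ChREBP, was higher in AL than in Ctrl (log2FC 0.79 ± 0.158, FDR = 0.0017) and LS mice (0.95 ± 0.191, FDR = 0.00204, edgeR's quasi-likelihood test). Scd4, the desaturase of heart muscle and a neighbour of Scd1 in sequence, was lower in AL than in Ctrl mice (-2.09 ± 0.373, FDR = 0.000791), LS mice (-2.19 ± 0.436, FDR = 0.00197) and both together (-2.12 ± 0.344, FDR = 0.000146). Thrsp was lower than in Ctrl mice (-0.58 ± 0.181, FDR = 0.0235). Between runs 3 of the 19 were called, beside 19.4% of all tested genes. In the second run Elovl5 was lower (-0.82) and Mlxipl (1.11) and Srebf1 (0.67) were higher. Scd1 and Scd4 are paralogs, and how reads that match both were divided was set by the authors' quantification.

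Of 10 tested brown fat genes, 1 was called against Ctrl and 1 against LS, beside 7.81% and 8.9% of all tested genes. Gk, the glycerol kinase, was lower in AL than in Ctrl mice (-0.59 ± 0.0723, FDR = 8.71e-05) and Ppargc1a, a coactivator of mitochondrial genes, was lower than in LS mice (-0.93 ± 0.156, FDR = 0.000709, edgeR's quasi-likelihood test). Without AL1, 0 of the list were called against Ctrl mice, so that the Gk call was lost, and 1 against LS mice. Between runs 4 of the 10 were called, beside 19.4% of all tested genes. In the second run Cox8b (-1.47), Cox7a1 (-1.53), Gk (-0.695) and Fabp3 (-0.67) were lower. Of the 6 receptors for adipocyte hormones and catecholamines, Lepr, the leptin receptor, was lower in AL than in Ctrl mice (-1.35 ± 0.292, FDR = 0.00286), LS mice (-1.645 ± 0.313, FDR = 0.0015) and both (-1.48 ± 0.255, FDR = 0.000238). It was at -1.44 (FDR = 0.00237) against Ctrl mice without AL1. The adiponectin receptor genes Adipor1 and Adipor2 and the adrenergic receptor gene Adrb1 were not called in AL against any control group.

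The labels give no sex, and the members were set beside Xist, which is transcribed from the inactive X chromosome of female cells. Xist was at 185 to 400 CPM in 8 mice (Ctrl1 to Ctrl3, LS2, LS3 and AL2 to AL4) and at 6.35 CPM or less in the other 12. Adipoq ranged from 0.183 to 1.24 CPM with a median of 0.659 CPM in the 8 mice, and from 0 to 0.591 CPM with a median of 0.116 CPM in 11 of the other 12. AL1, the remaining mouse, had 0.205 CPM of Xist and 10 CPM of Adipoq. The mice next to AL1 in Adipoq (AL4, AL2, AL3 and Ctrl2) were thus all of the 8 mice, 3 of which were AL mice, and with Xist as a covariate Adipoq was no longer called against LS mice (3.02, FDR = 0.0711) or merged controls (1.98, FDR = 0.106).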

How the data were processed

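PolyA-selected RNA of the apical heart was sequenced by the authors as stranded paired-end libraries and processed with the nf-core/rnaseq workflow, with STAR alignment to GRCm38, Salmon quantification and removal of run effects with ComBat before edgeR. The deposited table holds the estimated counts of Salmon per gene for the 20 mice, not normalized and not adjusted for run. Of these values 14.2% were not whole and were rounded.

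Groups were taken from the labels, and runs were set as described above. Genes were filtered with filterByExpr (minimum count of 10), which left 14477 of 25308 genes, and scaled by TMM. AL, LS and Ctrl mice were compared with glmQLFit and glmQLFTest in edgeR 4.0.16 (R 4.3.3) in 1 model of group and run over all 20 mice, with Benjamini-Hochberg adjustment over all tested genes. Whether mice of a group came from separate litters or cages was not given, and p-values measure the spread between these mice. A called gene had an FDR below 0.05 and a log2FC of 0.58 or more in size (1 or more for AL against LS and Ctrl merged). Relations between genes were computed with scipy 1.17.1 on log2 CPM with a prior count of 2. Named genes were the 9 members, at most 5 called genes of each pathway list per comparison, the 10 genes most like Adipoq and 5 each most like Scd1 and Ucp1. The code was tested on simulated counts. Members and lists were chosen with earlier results of these data known. Alternatives were no filter, a stricter filter, RLE size factors, DESeq2 1.42.0, ComBat-seq adjusted counts (sva 3.50.0), no run term, Xist or liver markers as covariates, single runs, the replicate number as a block, and each mouse left out in turn. Total counts were 7867642 to 62668146 per mouse. Gene coordinates were those of GENCODE M21 on GRCm38, and promoter windows those of RefSeq on GRCm38.p6.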

Additional observations from a re-analysis of the deposited data

Results flagged for a closer look

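In 12 of the 27 sets of values formed by 9 genes and 3 groups, the highest mouse lay farther from the next than Dixon's 95% critical value allows, and 7 of the 12 were AL1. Chance gives about 1 in 20 only for values with a normal spread, which sets that are mostly 0 do not have, so the 12 cannot be read against it. AL1 stood out among the AL mice for Adipoq (10 CPM, next AL4 at 1.24 CPM), Plin1 (3.95 CPM), Cidec (16.7 CPM), Lep (15.2 CPM), Retn (2.18 CPM), Adrb3 (0.68 CPM) and Scd1 (76.6 CPM). These values come from 1 library and are not independent of each other. Ctrl3 stood out among the Ctrl mice for Scd1 (135.0 CPM from 5428 counts, next Ctrl1 at 62.0 CPM). It stood out for Ucp1 as well, at 0.125 CPM from 5 counts. The other 3 rest on 1 or 2 counts, in Adrb3 of LS1 (0.0472 CPM) and Ctrl6 (0.0996 CPM) and in Ucp1 of LS4 (0.0193 CPM), and the Ctrl6 value is 1 count in a shallow library beside 1 count in Ctrl2 (0.019 CPM).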

How the results depend on the processing

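Calls of the members in AL mice depended on single mice and on the treatment of the run, while the direction of most single values did not change. Leaving out 1 mouse at a time gave 0 to 1 called members against Ctrl, 0 to 2 against LS, 0 to 3 against merged controls, 0 for LS against Ctrl, 3 for the run, and 3 to 5 members correlated with Adipoq. Against Ctrl mice 1 member (Scd1) was called in the first run only. Against LS mice 2 were called by DESeq2 and 0 with at least 10 counts in every mouse, with ComBat-seq adjusted counts, with no run term, with Xist and with liver markers as a covariate. Against merged controls 4 were called with no filter (Retn, Adipoq, Adrb3 and Lep). AL1 alone held 88.4% of the Lep and 71.7% of the Adrb3 counts. With no filter and without AL1, Lep was at 1.295 (FDR = 0.292) and Adipoq at 0.84 (FDR = 0.328), neither of them called. In the same comparison 0 were called with at least 10 counts in every mouse or with liver markers, and 1 (Retn) with ComBat-seq or Xist. The liver markers overlap with the groups, so the fits that hold them cannot part the 2. Between runs 1 (Cidea) was called with liver markers. Over all genes, 587 were called against Ctrl with at least 10 counts in every mouse and 16 in the second run only, 648 against LS with ComBat-seq, 138 against merged controls with at least 10 counts in every mouse, and 19 (DESeq2) or 6 (ComBat-seq) for LS against Ctrl. The stricter filter removes genes that are low in any mouse, and the second run holds 5 mice.

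Some log2FC values that were not called changed sign. With Xist, Cidec was at -0.71 against Ctrl, with liver markers Plin1 was at -0.032 against Ctrl and Scd1 at 0.33 against merged controls, and with DESeq2 Retn was at -0.081 for LS against Ctrl. Against Ctrl, Plin1 ranged from -0.29 (without AL1) to 1.74 and Cidec from -1.58 (without AL1) through -0.01 (without Ctrl3) to 0.68. Cidec ranged from -0.33 (without AL1) to 2.70 against LS and from -1.09 (without AL1) to 1.15 against merged controls. For LS against Ctrl, Retn ranged from -0.39 (without LS3) through -0.12 (without Ctrl3) to 1.00, and Cidea from -0.03 (without Ctrl4) through -0.01 (without LS2) to 0.10. Apart from the filter and the smaller samples, the cause was not tested.

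With the replicate number as a block, 2 members were called against Ctrl (Retn and Adipoq), 3 against LS (Retn, Adipoq and Plin1) and 1 between runs (Cidea). Retn, Adipoq and Plin1 had passed the filter only with AL mice, so these calls against Ctrl and LS are a description. The run differences of Adipoq (3.21), Plin1 (1.67) and Retn (4.499) changed sign. Of 15 same-numbered pairs, 3 had a correlation over 0.1 (range -0.154 to 0.231). Pairs with different numbers were not compared, so these values cannot say whether the numbers pair the mice. In the second run alone, Adipoq, Plin1, Cidec and Retn could not be tested at its depth.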
